A study of Mus musculus with 10 samples.

Results

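The genes described here carry glucose into the cell and convert it to pyruvate and lactate. They are Slc2a1 and Slc2a3 (glucose transporters), Hk1 and Hk2 (hexokinases), Pfkl and Pfkp (phosphofructokinase subunits), Pgk1 (phosphoglycerate kinase), Ldha and Ldhb (lactate dehydrogenase subunits) and Pdk1 (a kinase that restrains pyruvate use in mitochondria). They were chosen by symbol, with earlier results of these data known. Every non-control probe that the scanner files name for a gene of the list was taken. This gave 15 of 55681 non-control probes, for 10 of 23811 genes tested. All 15 probes were well above background on all 10 arrays, so no gene of the list was lost to the filter on dim probes.

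In glycolysis a glucose molecule is trapped by phosphorylation, split and oxidised to pyruvate, with a small yield of ATP. Lactate dehydrogenase then turns pyruvate into lactate and restores the cofactor that the pathway consumes, while pyruvate that enters mitochondria is burned through oxidative phosphorylation. Mouse embryonic stem cells rely on both routes, and many of these genes are targets of hypoxia-inducible factors and of Myc.

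Expression was measured on one-colour Agilent arrays in mouse embryonic stem cells grown without feeders in serum and leukaemia inhibitory factor. The series asked what DNA demethylation through PRDM14, a transcriptional regulator of naive pluripotency, does to gene expression. PRDM14 (2 arrays) was line JP-23, which stably expresses Prdm14 in wild-type cells. PRDM14_DNMT3B (2 arrays) was line JP-23+3b-3, with stable expression of both Prdm14 and Dnmt3b1, a catalytic form of the de novo methyltransferase. Dnmt3b_KO (2 arrays) was line 8bb, genotype Dnmt3b-/-. Dnmt1_KO (1 array) was line 36, genotype Dnmt1-/-, and lacks the maintenance methyltransferase. TKO (1 array) was line 19-1, genotype Dnmt1-/-Dnmt3a-/-Dnmt3b-/-. J1 (2 arrays) was the wild-type line. Each group is thus a single line, and the promoters that drive the transgenes are not given in the sources used here.

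A level here is the log2 of a probe's signal after subtracting the array's own 75th percentile, so 1 unit is a 2-fold step, and levels of different probes are not compared. Differences are log2 differences, the first-named group minus the other, from limma fitted on all 10 arrays over 23811 genes. A gene passed where its p, adjusted by Benjamini-Hochberg over all genes, was under 0.05, and intervals are 95% intervals. Nothing in the labels says that the arrays of a group came from separate cultures. The p-values therefore reflect array-to-array spread alone, possibly technical. For Dnmt1_KO and TKO, which have no replicate, the spread of the replicated groups was used. Between 50.03% and 56.03% of the spots of an array were well above background and none was saturated. Replicate arrays correlated at r of 0.9951 to 0.9977 across 18252 genes, which are not independent replicates. Slides 1 and 2 held J1, PRDM14_DNMT3B and Dnmt3b_KO side by side, and slide 1 also held Dnmt1_KO and TKO. The PRDM14 arrays lay on slides 3 and 4 with no other group, so for every comparison of PRDM14 the slide and the line cannot be told apart.

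All 10 embryonic stem cell markers on the list (Pou5f1, Sox2, Nanog and others) were well above background on every array. Their summed signal (log2 of the sum) was 10.26 and 10.35 in PRDM14, 10.14 and 10.22 in PRDM14_DNMT3B, 10.08 and 10.18 in Dnmt3b_KO, 9.66 in Dnmt1_KO, 10.08 in TKO and 9.97 and 10.12 in J1. The Dnmt1_KO array had the lowest value. Of 8 fibroblast markers, Lum and Postn were not well above background on any array. Dcn was not in PRDM14 or PRDM14_DNMT3B, and Col3a1 was not in PRDM14 or on 1 PRDM14_DNMT3B array. The summed fibroblast signal was 0.88 on both PRDM14 arrays, 1.38 and 1.59 in PRDM14_DNMT3B, 3.51 and 3.55 in Dnmt3b_KO, 3.15 in Dnmt1_KO and 3.20 in TKO, against 1.93 and 2.06 in J1. The knockout lines were thus high and the PRDM14 lines low in this sum, which follows the brightest genes. Against J1, of 6 markers tested, 4 were lower and 1 higher in PRDM14, and 3 lower and 1 higher in PRDM14_DNMT3B. In Dnmt3b_KO 3 were higher, in Dnmt1_KO 3 and in TKO 4, with none lower by limma or at an unadjusted p under 0.05. The summed signal of 6 primitive endoderm markers was 1.35 in TKO and between -1.10 and -0.19 elsewhere. For 6 trophoblast markers it was 4.82 and 4.86 in PRDM14, 1.86 in TKO and between 3.55 and 4.18 elsewhere. The sum follows the brightest genes: of 5 trophoblast markers tested in PRDM14 against J1, 2 were higher (Hand1 by 1.96 and Tfap2c by 1.46) and 3 lower, with a median of -1.20. For 3 mesoderm markers the summed signal was between -3.44 and -2.87 in PRDM14, PRDM14_DNMT3B and TKO and between 0.16 and 1.72 elsewhere. Only 1 of these 3, T, passed the filter for testing. T was not well above background in PRDM14, PRDM14_DNMT3B or TKO, so the low sums lie near background. For 3 neural markers the sum was between -2.33 and -0.19 on all arrays. The part of these marker genes in the differences below was not tested. RNA of whole cultures was measured, so fewer cells with a transcript and less of it per cell cannot be told apart.

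The promoters of the genes whose level differed most clearly with added Dnmt3b1, and that of Pfkp, are shown. Matches to the short motifs of hypoxia-inducible factors and Myc given below were counted in them. Binding of these factors, and any part of it in the differences, was not tested. RefSeq (GRCm38.p6) gave promoters for 9 of the 10 genes, as 250 bases before to 50 bases after the start, and none was at hand for Slc2a3. Capitals mark ACGTG, a form of the hypoxia response element core, on either strand (its other strand reads CACGT). They also mark the E-box CACGTG, which holds 1 ACGTG on each strand. Other forms of the core, such as GCGTG, were not counted.
Ldha, chr7:46845554-46845853, plus strand: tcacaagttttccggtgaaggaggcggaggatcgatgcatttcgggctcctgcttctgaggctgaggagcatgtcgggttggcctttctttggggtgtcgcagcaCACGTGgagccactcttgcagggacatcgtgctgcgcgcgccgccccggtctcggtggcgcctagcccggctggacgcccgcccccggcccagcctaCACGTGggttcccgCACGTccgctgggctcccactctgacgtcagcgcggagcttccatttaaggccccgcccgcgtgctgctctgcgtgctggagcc
Pgk1, chrX:106186850-106187149, plus strand: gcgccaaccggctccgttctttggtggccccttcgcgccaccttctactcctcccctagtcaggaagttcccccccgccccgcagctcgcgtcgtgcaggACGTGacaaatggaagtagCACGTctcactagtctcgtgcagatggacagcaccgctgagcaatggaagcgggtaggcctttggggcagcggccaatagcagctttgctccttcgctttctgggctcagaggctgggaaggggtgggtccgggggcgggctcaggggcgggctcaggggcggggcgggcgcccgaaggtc
Hk2, chr6:82774405-82774704, minus strand: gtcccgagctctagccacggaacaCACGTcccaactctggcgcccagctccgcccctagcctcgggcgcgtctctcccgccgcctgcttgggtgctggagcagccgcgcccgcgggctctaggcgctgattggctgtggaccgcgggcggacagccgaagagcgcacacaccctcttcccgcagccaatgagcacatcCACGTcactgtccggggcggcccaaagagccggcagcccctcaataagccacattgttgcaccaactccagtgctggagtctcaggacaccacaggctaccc
Pfkl, chr10:78009758-78010057, minus strand: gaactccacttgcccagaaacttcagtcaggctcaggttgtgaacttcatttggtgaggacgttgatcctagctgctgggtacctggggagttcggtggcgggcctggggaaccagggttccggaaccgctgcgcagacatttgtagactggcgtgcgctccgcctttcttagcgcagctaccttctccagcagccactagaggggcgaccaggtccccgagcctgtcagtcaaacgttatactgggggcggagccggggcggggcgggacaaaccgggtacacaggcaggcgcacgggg
Pfkp, chr13:6648722-6649021, minus strand: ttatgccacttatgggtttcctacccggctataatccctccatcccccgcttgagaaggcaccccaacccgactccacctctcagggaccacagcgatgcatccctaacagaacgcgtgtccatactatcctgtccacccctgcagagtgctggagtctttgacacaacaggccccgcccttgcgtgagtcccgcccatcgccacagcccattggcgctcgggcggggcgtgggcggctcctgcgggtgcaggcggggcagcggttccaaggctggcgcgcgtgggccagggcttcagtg

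The Ldha promoter held 5 matches to ACGTG over both strands, in 2 E-boxes and 1 further site, and 30 CG dinucleotides. The promoters of Pgk1 and Hk2 held 2 ACGTG matches each, with 24 and 25 CG, and those of Pfkl and Pfkp held none, with 20 and 21 CG. Among all 32851 mouse promoters of the same length, 19.6% held at least 1 ACGTG match, 8.21% at least 2 and 0.183% at least 5, and 7.15% held CACGTG. The median promoter had 7 CG. Of the other genes, Slc2a1 had 1 match and 18 CG, Ldhb none and 17 CG, and Pdk1 none in either of its 2 promoters (25 and 2 CG). Hk1 has 2 promoters in the table, 1 with 2 matches and 20 CG and 1 with none and 1 CG, and a second Ldha promoter at chr7:46846832-46847131 had no match and 13 CG. A match is a string of letters and not a measured binding site.

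**Figure D1:**
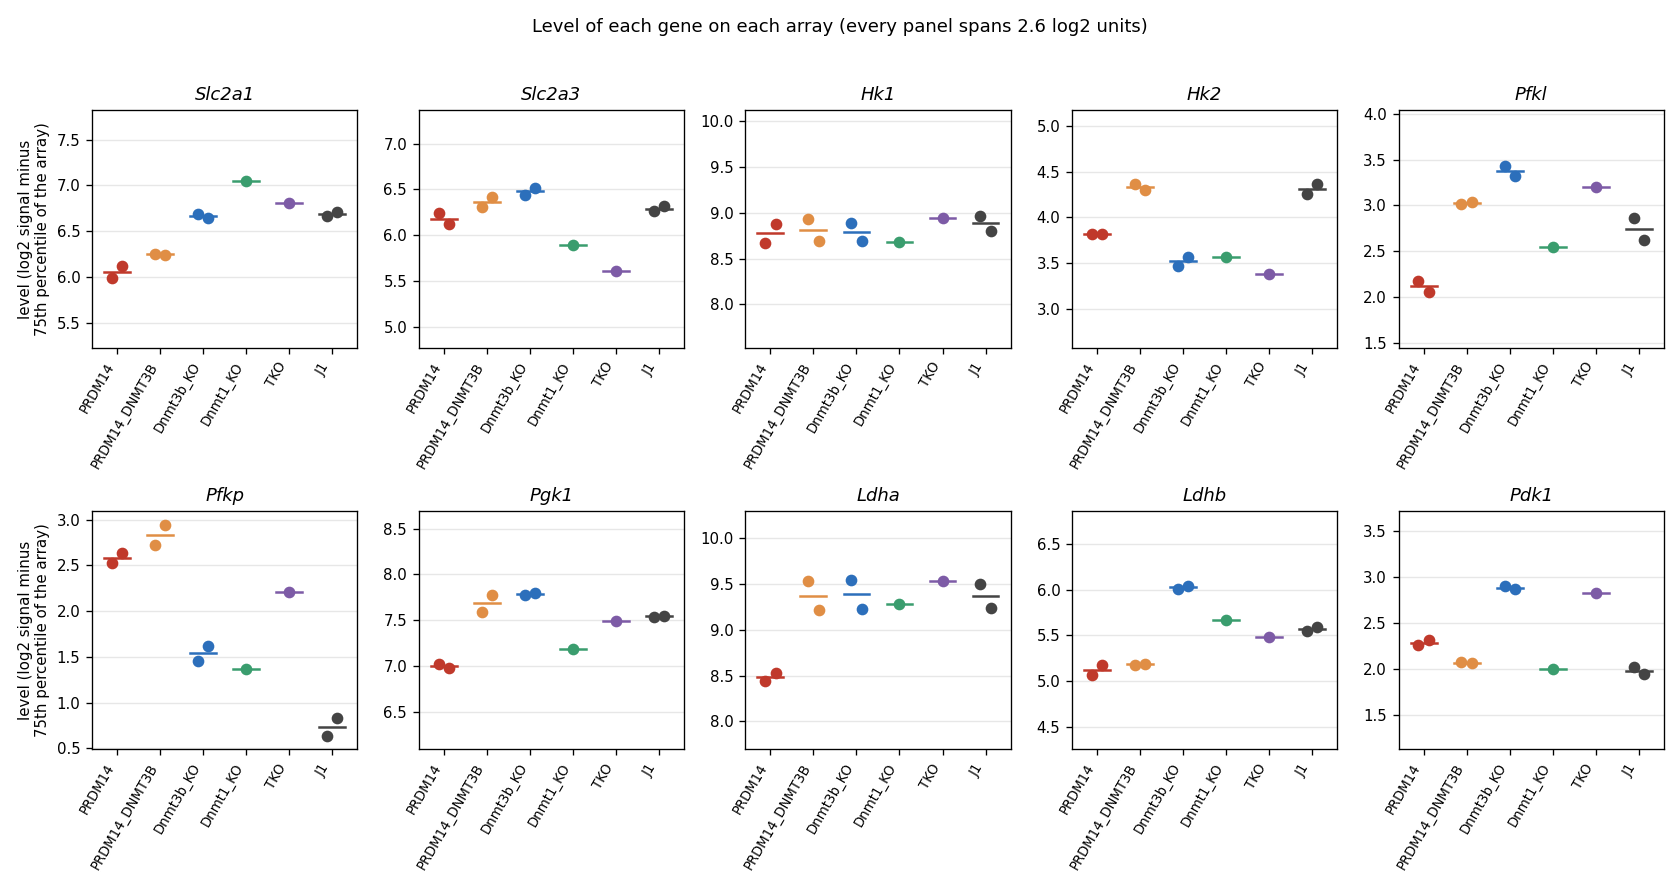
Level of each of the 10 genes (log2 scale, relative to each array's 75th percentile, vertical axis) on each array, by group (horizontal axis). Points are arrays and horizontal lines are group means. Ldha, Pfkl and Pgk1 were lowest in PRDM14, and Pfkp, by its brighter probe, was lowest in J1.

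The glucose transporters did not move together. Slc2a1, the widely expressed transporter of basal glucose uptake, was at 5.99 and 6.12 in PRDM14, 6.24 and 6.25 in PRDM14_DNMT3B, 6.64 and 6.69 in Dnmt3b_KO, 7.05 in Dnmt1_KO and 6.81 in TKO, against 6.67 and 6.71 in J1. Both PRDM14 lines lay below every other array, with no overlap between them, and Dnmt3b_KO overlapped J1. Slc2a1 was 1.56-fold lower in PRDM14 than in J1 (log2 difference -0.64, 95% interval -0.85 to -0.43, limma adjusted p = 0.00225) and 1.36-fold lower in PRDM14_DNMT3B than in J1 (-0.44, -0.65 to -0.24, adjusted p = 0.00878). The step between PRDM14_DNMT3B and PRDM14 was 0.19 (-0.01 to 0.40) and did not pass (adjusted p = 0.164). In Dnmt1_KO the difference from J1 was 0.35, with an adjusted p of 0.0515, and 0.0382 with a replicate block.

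Slc2a3, the high-affinity transporter of neurons and early embryos, followed another order. Its probe gave 6.12 and 6.24 in PRDM14, 6.31 and 6.42 in PRDM14_DNMT3B, 6.44 and 6.52 in Dnmt3b_KO, 5.89 in Dnmt1_KO and 5.61 in TKO, against 6.26 and 6.32 in J1. The 2 lines without Dnmt1 were lowest, and PRDM14_DNMT3B overlapped J1. Slc2a3 was 1.61-fold lower in TKO than in J1 (-0.68, -0.96 to -0.40, adjusted p = 0.00895). In Dnmt1_KO it was 1.32-fold lower (-0.40, adjusted p = 0.0474), a call that depended on scaling: with quantile normalization the difference was -0.06 (adjusted p = 0.784). It was also lost without any 1 of the 8 arrays of replicated groups, with adjusted p from 0.0675 without either PRDM14_DNMT3B array to 0.126 without J1 replicate 2.

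Hk2, the inducible hexokinase that traps glucose in the cell, was at 3.82 on both PRDM14 arrays, 4.30 and 4.36 in PRDM14_DNMT3B, 3.47 and 3.57 in Dnmt3b_KO, 3.57 in Dnmt1_KO and 3.38 in TKO, against 4.26 and 4.36 in J1. The 3 knockout lines lay together at the bottom, PRDM14 lay between, and PRDM14_DNMT3B overlapped J1. Relative to J1, Hk2 fell by 0.79 in Dnmt3b_KO (adjusted p = 0.00346), by 0.74 in Dnmt1_KO (adjusted p = 0.00621) and by 0.93 in TKO (adjusted p = 0.00272), which are 1.73-fold, 1.67-fold and 1.90-fold. It fell by 0.49 in PRDM14 (1.40-fold, adjusted p = 0.00692), and PRDM14_DNMT3B differed from J1 by 0.02 (-0.19 to 0.24, adjusted p = 0.879). These 4 calls held under all alternatives that were run.

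Hk1, the housekeeping hexokinase, had 3 probes that did not behave alike. The brightest, at chr10:61731230-61731288 (mm9), gave values from 8.67 to 8.97 on all 10 arrays, the smallest range of group means of the 10 genes (0.26), and passed in no comparison. Its replicate arrays differed by 0.17 to 0.24, nearly as much as the groups did. The probe at chr10:61731856-61731915 gave 1.70 and 1.92 in PRDM14, 1.91 and 1.92 in PRDM14_DNMT3B, 2.72 and 2.88 in Dnmt3b_KO, 2.57 in Dnmt1_KO and 2.13 in TKO, against 2.16 and 2.27 in J1. Tested on its own, it was 1.5-fold higher in Dnmt3b_KO than in J1 (0.58, 0.30 to 0.87, adjusted p = 0.0217 over 33100 probes) and lower in PRDM14 than in J1 (-0.40, adjusted p = 0.0394). The third probe, at chr10:61732717-61732776, gave -2.19 and -2.16 in PRDM14, -2.30 and -2.47 in PRDM14_DNMT3B, -1.49 and -1.36 in Dnmt3b_KO, -1.71 in Dnmt1_KO and -2.08 in TKO, against -1.83 and -2.19 in J1. It was also higher in Dnmt3b_KO than in J1 (0.59, adjusted p = 0.0445). Between PRDM14 and Dnmt3b_KO both dimmer probes differed (-0.99 and -0.75, adjusted p = 0.00187 and 0.0118), where the brightest did not pass (-0.02, adjusted p = 0.943).

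Phosphofructokinase carries out the committed step of glycolysis, and its subunit genes diverged. Pfkl, the liver-type subunit, was at 2.05 and 2.18 in PRDM14, 3.02 and 3.04 in PRDM14_DNMT3B, 3.32 and 3.43 in Dnmt3b_KO, 2.55 in Dnmt1_KO and 3.20 in TKO, against 2.62 and 2.86 in J1. No pair of groups overlapped, with PRDM14 lowest and Dnmt3b_KO highest. Pfkl was 1.54-fold lower in PRDM14 than in J1 (-0.63, -0.91 to -0.35, adjusted p = 0.0074) and 1.55-fold higher in Dnmt3b_KO than in J1 (0.63, 0.35 to 0.91, adjusted p = 0.015). With added Dnmt3b1 it was 1.89-fold higher (PRDM14_DNMT3B minus PRDM14, 0.91, 0.64 to 1.19, adjusted p = 0.00498). With a replicate block it also passed in TKO against J1 (0.40, adjusted p = 0.0469, against 0.058 without) and in PRDM14_DNMT3B against Dnmt3b_KO (-0.34, adjusted p = 0.0336, against 0.0702 without).

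Pfkp, the platelet-type subunit, had the widest range of group means of the 10 genes (2.09). Its brighter probe, at chr13:6581718-6583872 (mm9), gave 2.53 and 2.63 in PRDM14, 2.72 and 2.94 in PRDM14_DNMT3B, 1.46 and 1.62 in Dnmt3b_KO, 1.37 in Dnmt1_KO and 2.21 in TKO, against 0.64 and 0.83 in J1. All 8 arrays of the other lines lay above both J1 arrays. Pfkp was 3.58-fold higher in PRDM14 than in J1 (1.84, 1.53 to 2.15, adjusted p = 0.000214), 4.26-fold higher in PRDM14_DNMT3B (2.09, adjusted p = 0.000149), 1.74-fold higher in Dnmt3b_KO (0.80, adjusted p = 0.00961), 1.55-fold higher in Dnmt1_KO (0.63, adjusted p = 0.0304) and 2.77-fold higher in TKO (1.47, adjusted p = 0.00199). The comparisons share the J1 arrays, so they are not independent of one another. The PRDM14_DNMT3B arrays lay above the PRDM14 arrays by 0.25, which did not pass (-0.06 to 0.56, adjusted p = 0.21). It passed with a replicate block (adjusted p = 0.0433), but these groups shared no slide that the replicate number could mark.

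The dimmer Pfkp probe, at chr13:6579124-6579183, did not follow the brighter one. It gave -2.08 and -2.10 in PRDM14, -2.28 and -1.98 in PRDM14_DNMT3B, -2.01 and -2.26 in Dnmt3b_KO, -1.52 in Dnmt1_KO and -1.98 in TKO, against -1.70 and -1.98 in J1. Its difference between PRDM14 and J1 was -0.25 (-0.66 to 0.15, adjusted p = 0.282), and it passed in none of the 8 comparisons (10 arrays, limma over 33100 probes). With the mean of both probes standing for the gene, the rise in PRDM14 was 0.79 and in Dnmt3b_KO 0.25, and the Dnmt3b_KO call was lost (adjusted p = 0.156). The brighter probe spans 2155 bases of the genome with its 60 bases, so it covers a splice junction.

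The brighter Pfkp probe, both dimmer Ldha probes and the dimmest Hk1 probe are shown as examples of probes that moved. Each has at least 1 reading frame without a stop codon. The dimmer Pfkp probe, the brightest Ldha probe and the second Hk1 probe also have one and are not shown.
Pfkp, brighter probe, chr13:6581718-6583872, minus strand, mm9: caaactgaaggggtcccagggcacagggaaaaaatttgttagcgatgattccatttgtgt
Ldha, chr7:54103010-54103069, plus strand, mm9: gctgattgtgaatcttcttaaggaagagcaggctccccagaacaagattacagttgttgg
Ldha, chr7:54107294-54107353, plus strand, mm9: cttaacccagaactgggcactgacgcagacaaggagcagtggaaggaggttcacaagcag
Hk1, dimmest probe, chr10:61732717-61732776, minus strand, mm9: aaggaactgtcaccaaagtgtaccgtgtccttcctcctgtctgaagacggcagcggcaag

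Pgk1, which makes the first ATP of the pathway, was at 6.98 and 7.02 in PRDM14, 7.59 and 7.78 in PRDM14_DNMT3B, 7.78 and 7.80 in Dnmt3b_KO, 7.19 in Dnmt1_KO and 7.49 in TKO, against 7.54 and 7.55 in J1. PRDM14 was lowest, and PRDM14_DNMT3B and Dnmt3b_KO overlapped at the top. Pgk1 was 1.46-fold lower in PRDM14 than in J1 (-0.55, -0.78 to -0.32, adjusted p = 0.006) and 1.61-fold higher with added Dnmt3b1 (0.68, 0.45 to 0.91, adjusted p = 0.00662). The scanner files place this probe on chromosome 3, at chr3:57906830-57906894 (mm9), while RefSeq has the gene on the X chromosome. A probe named for Gm5537 overlaps it there and shares a run of 53 bases. That probe gave 6.50 and 6.41 in PRDM14, 7.07 and 7.25 in PRDM14_DNMT3B and 7.13 and 7.17 in J1. The Pgk1 value may therefore include near-identical copies of the gene and is uncertain in that respect.

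Ldha, the subunit that favours lactate production, separated PRDM14 from every other line. The brightest of its 3 probes, at chr7:54110937-54110996 (mm9), read 8.44 and 8.53 in PRDM14, 9.53 and 9.22 in PRDM14_DNMT3B, 9.55 and 9.23 in Dnmt3b_KO, 9.28 in Dnmt1_KO and 9.53 in TKO, against 9.50 and 9.24 in J1. Both PRDM14 arrays stood below all others, which lay between 9.22 and 9.55. Ldha was 1.85-fold lower in PRDM14 than in J1 (-0.89, -1.31 to -0.46, adjusted p = 0.00993) and 1.85-fold higher in PRDM14_DNMT3B than in PRDM14 (0.89, 0.46 to 1.32, adjusted p = 0.0196). The difference of PRDM14_DNMT3B from J1 was 0.00 (-0.42 to 0.43, adjusted p = 0.989).

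Both other Ldha probes were also lowest in PRDM14. The probe at chr7:54103010-54103069 read 3.25 and 3.13 in PRDM14, 4.47 and 4.46 in PRDM14_DNMT3B, 4.54 and 4.53 in Dnmt3b_KO, 4.15 in Dnmt1_KO and 4.57 in TKO, against 4.47 and 4.40 in J1. The probe at chr7:54107294-54107353 read 5.40 and 5.32 in PRDM14, 6.62 and 6.64 in PRDM14_DNMT3B, 6.86 and 6.81 in Dnmt3b_KO, 6.43 in Dnmt1_KO and 6.94 in TKO, against 6.57 and 6.47 in J1. Their differences between PRDM14 and J1 were -1.25 and -1.16 (2.37-fold and 2.23-fold lower, adjusted p = 0.000258 and 0.000342). Between PRDM14_DNMT3B and PRDM14 both were 1.27 (adjusted p = 0.00125 for each). Without PRDM14 replicate 1 the brightest probe no longer passed against J1 (-0.84, adjusted p = 0.0592), and the difference between PRDM14_DNMT3B and PRDM14 had adjusted p values of 0.106, 0.0818 and 0.0837 without PRDM14 replicate 1, PRDM14 replicate 2 and PRDM14_DNMT3B replicate 1. The 3 probes share the same RNA and are not replicates, and signal from any near-identical copies was not separated.

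**Figure D2:**
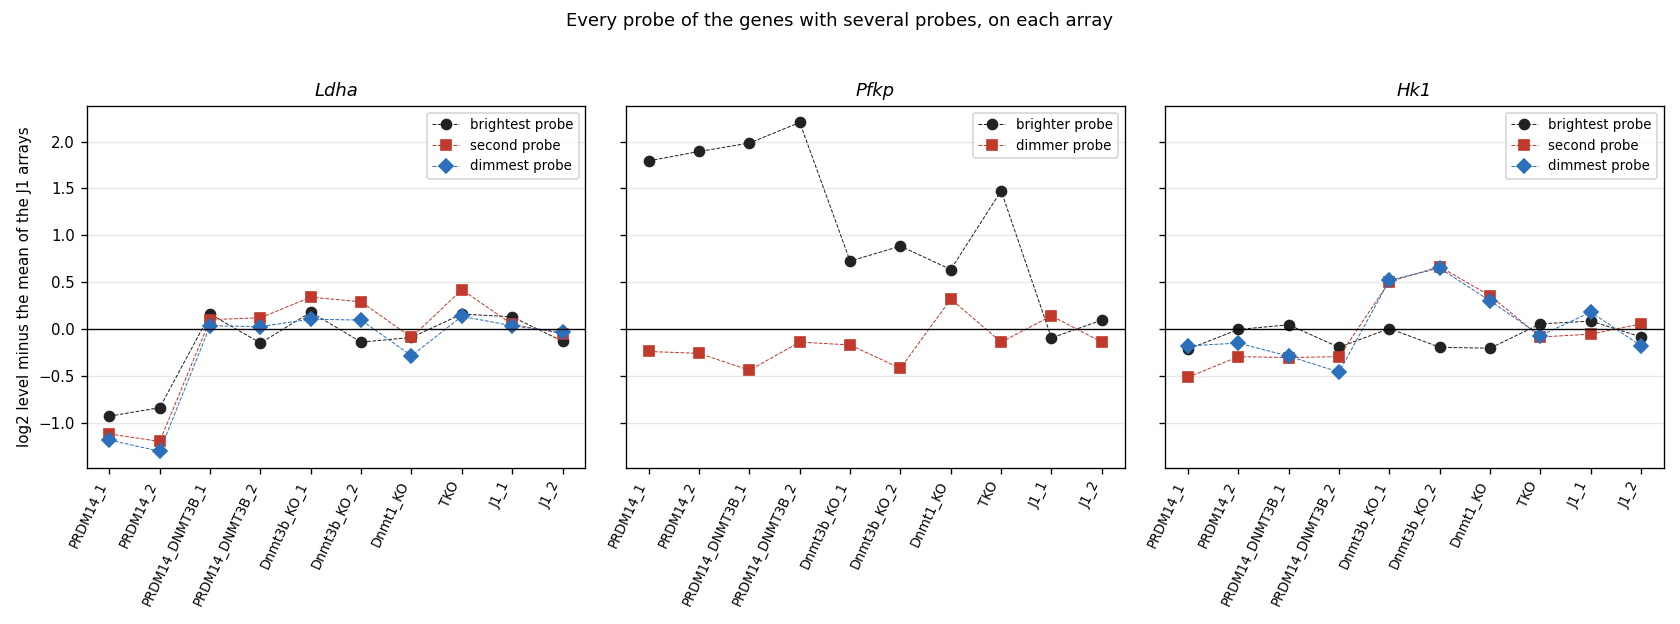
Level of every probe of Ldha, Pfkp and Hk1 on each array, minus the mean of that probe on the J1 arrays (log2, vertical axis), with arrays along the horizontal axis. The 3 Ldha probes fell together in PRDM14, the Pfkp probes parted in both PRDM14 lines, and the 2 dimmer Hk1 probes parted from the brightest in Dnmt3b_KO.

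Ldhb, the subunit that favours the return of lactate to pyruvate, was at 5.07 and 5.18 in PRDM14, 5.18 and 5.19 in PRDM14_DNMT3B, 6.01 and 6.04 in Dnmt3b_KO, 5.67 in Dnmt1_KO and 5.48 in TKO, against 5.55 and 5.59 in J1. Both PRDM14 lines were low and the Dnmt3b knockout was high. Ldhb was 1.36-fold lower in PRDM14 than in J1 (-0.44, -0.64 to -0.25, adjusted p = 0.00738), 1.31-fold lower in PRDM14_DNMT3B (-0.39, adjusted p = 0.0123) and 1.38-fold higher in Dnmt3b_KO (0.46, adjusted p = 0.0136). Unlike Ldha, it did not pass between PRDM14_DNMT3B and PRDM14 (0.06, -0.14 to 0.26, adjusted p = 0.657), although the difference between the 2 subunit genes was not itself tested. With normexp background correction the calls against J1 were lost for PRDM14 (-0.23, adjusted p = 0.145) and PRDM14_DNMT3B (-0.24, adjusted p = 0.127).

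Pdk1, the pyruvate dehydrogenase kinase that hypoxia-inducible factor raises, was at 2.26 and 2.31 in PRDM14, 2.06 and 2.07 in PRDM14_DNMT3B, 2.87 and 2.90 in Dnmt3b_KO, 2.00 in Dnmt1_KO and 2.83 in TKO, against 1.94 and 2.02 in J1. The lines without Dnmt3b were high, while the Dnmt1 knockout lay within the range of J1. Pdk1 was 1.87-fold higher in Dnmt3b_KO than in J1 (0.90, 0.71 to 1.09, adjusted p = 0.00181) and 1.80-fold higher in TKO (0.85, 0.61 to 1.08, adjusted p = 0.00254). In Dnmt1_KO the difference was 0.02 (-0.22 to 0.25, adjusted p = 0.905). The rise in PRDM14 was 1.23-fold (0.30, adjusted p = 0.0258) and did not pass in 8 of 17 alternatives, among them leaving out either J1 array (adjusted p = 0.0518 and 0.101) or either PRDM14 array (0.0775 and 0.119).

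Across the list, 8 of the 10 genes passed in PRDM14 against J1, where 39.6% of all genes tested did. The list was chosen with earlier results known, so shares here and below describe it and do not test it. The share over all genes also includes genes well above background in only some groups, unlike the 10 listed. Higher were Pfkp and Pdk1 (2 of 10, against 21.0% of all genes), and lower were Slc2a1, Hk2, Pfkl, Pgk1, Ldha and Ldhb (6 of 10, against 18.7%). The members' median difference was -0.47, beside -0.03 over all genes. The comparison addressed what Prdm14 expression does to these cells. In the same comparison 10 of 22 other glycolysis genes were lower and 4 higher, with a median of -0.33. Lowest were Ldhc, the testis lactate dehydrogenase (at least 23.0-fold lower, adjusted p = 0.000304, measured means -5.75 in PRDM14 and -0.06 in J1), Pfkfb3, which makes the activator of phosphofructokinase (-1.84, adjusted p = 0.000242), and Tpi1, triosephosphate isomerase (-0.87, adjusted p = 0.000692). Pgam2, the muscle phosphoglycerate mutase, rose by 1.5 (adjusted p = 0.000416). Without PRDM14 replicate 1 these counts were 6 lower and 3 higher.

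The fold given for Ldhc is a lower bound, since its probe was not well above background in PRDM14. It sets the J1 mean against the dimmest signal that still counted as well above background on each PRDM14 array, or the Ldhc signal where that was higher. The adjusted p values of Ldhc, and the calls of Hkdc1 below, came from the measured values without such a bound. This includes values that were not well above background, so these p values and calls are less certain. Among 8 tested genes for transport of glucose and lactate, 4 were lower in PRDM14 than in J1 and 2 higher (median -0.75). Over all genes 18.7% were lower and 21.0% higher. The lactate exporter gene Slc16a3 fell by 1.14 (adjusted p = 0.000579), and Slc2a8, an intracellular glucose transporter, rose by 0.65 (adjusted p = 0.00208). Of 10 pentose phosphate genes, 4 were lower and 2 higher (median -0.25), with H6pd at -1.78 (adjusted p = 0.000173) and Pgls higher by 1.25 (adjusted p = 0.000671). Without J1 replicate 1 or either PRDM14 array, 2 were lower and 1 higher. Of 12 genes for pyruvate entry to mitochondria, 2 were higher, Mpc2 (0.74) and Mpc1 (0.67), the subunits of the mitochondrial pyruvate carrier, and 1 was lower, Dlat (-0.93).

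In PRDM14 against J1, 21.0% of all genes tested were higher and 18.7% lower. The counts of regulators and of oxidative phosphorylation genes below lay near or under these shares. Hypoxia-inducible genes outside glycolysis did not share the direction of the list. Of 20 tested, 8 were higher in PRDM14 than in J1 and 4 lower (median 0.05), with Fam162a (1.84, adjusted p = 7.17e-05) and Bnip3l, a mitophagy receptor (1.21, adjusted p = 0.000148), among the highest and Bhlhe40 (-1.31, adjusted p = 0.00026) the lowest. Of 17 regulators, 4 were higher, led by Esrrb, a nuclear receptor of naive cells (1.41, adjusted p = 0.000158), and 3 lower, led by Lin28b (-1.41, adjusted p = 0.000165). These became 3 and 1 without J1 replicate 2, 2 and 1 without PRDM14 replicate 1, and 2 and 2 without PRDM14 replicate 2. Of 30 oxidative phosphorylation genes, 4 were higher and 5 lower (median -0.05), with Cox7a1 higher by 0.79 and Ndufa1 lower (-0.44). The counts were 2 and 2 without J1 replicate 2 or PRDM14 replicate 1, 3 and 2 without PRDM14 replicate 2, and 5 and 1 without J1 replicate 1.

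**Figure D3:**
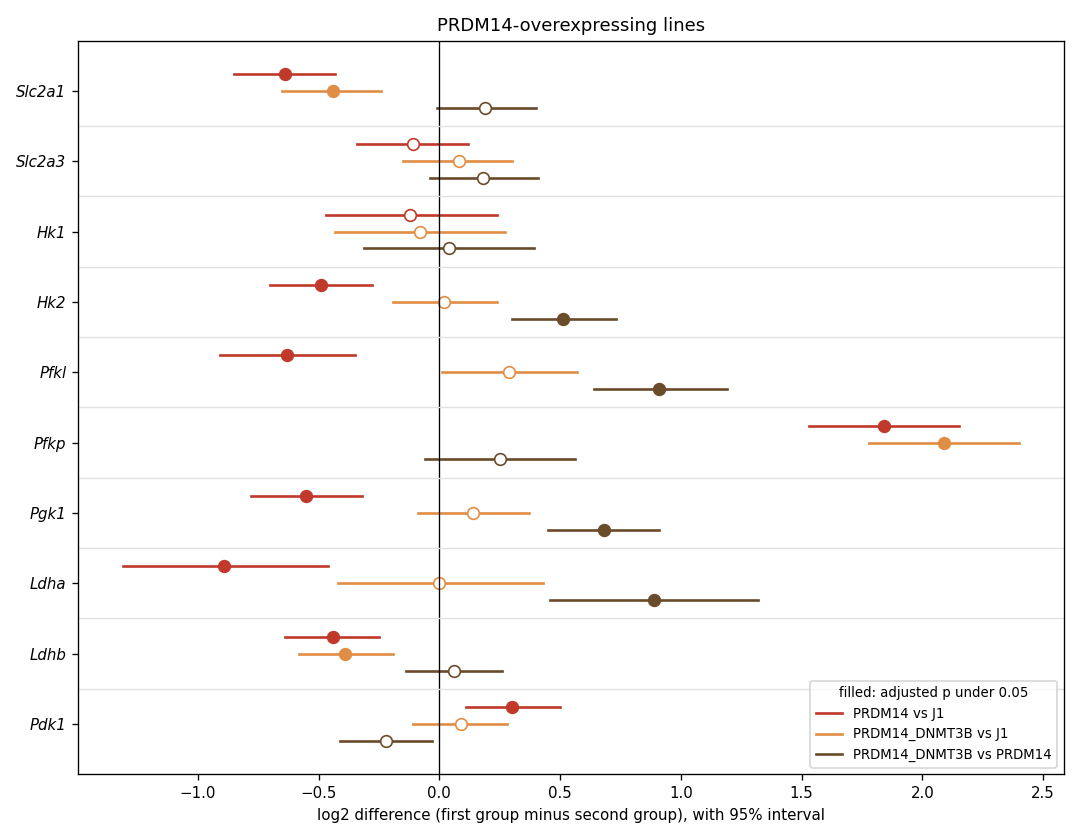
Log2 difference of each gene with its 95% interval (horizontal axis) for PRDM14 against J1, PRDM14_DNMT3B against J1 and PRDM14_DNMT3B against PRDM14. Filled points passed at an adjusted p under 0.05. Hk2, Pfkl, Pgk1 and Ldha were lower in PRDM14 and higher with added Dnmt3b1, while Pfkp, by its brighter probe, stayed high in both lines.

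The comparison of PRDM14_DNMT3B with PRDM14 addressed how expression differs where Dnmt3b1 was added, and these arrays did not measure methylation. Between PRDM14_DNMT3B and PRDM14, Hk2 (0.51, 0.30 to 0.73, adjusted p = 0.0129), Pfkl, Pgk1 and Ldha were higher, 4 of 10 genes, where 20.8% of all genes passed, 9.79% of them higher and 11.0% lower. None was lower after adjustment by limma, and 1, Pdk1 (-0.22), was lower at an unadjusted p under 0.05. The median was 0.22, beside -0.02 over all genes. Each of these 4 genes was among those lower in PRDM14 than in J1, and both comparisons use the PRDM14 arrays, which lay on slides of their own. When either PRDM14 array or PRDM14_DNMT3B replicate 1 was left out, 2 genes passed. Hk2 had adjusted p values of 0.0749 and 0.0698 without either PRDM14 array, and 0.066 and 0.0518 without either PRDM14_DNMT3B array.

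Over all genes, 9.79% were higher in PRDM14_DNMT3B than in PRDM14 and 11.0% lower. Of the other glycolysis genes, 7 of 22 were higher in PRDM14_DNMT3B than in PRDM14 and 1 was lower (median 0.26). Tpi1 was higher by 0.98 (adjusted p = 0.00162) and Pfkfb3 by 0.92 (adjusted p = 0.00745), and Eno3, the muscle enolase, was lower (-0.64, adjusted p = 0.00749). When 1 array of either line was left out, 2 or 3 of these genes were higher. The lactate exporter gene Slc16a3 was higher by 1.56 (adjusted p = 0.000968), 1 of 3 higher among 8 transport genes, with none lower by limma or at an unadjusted p under 0.05. In the hypoxia list 7 of 20 were higher, led by Plod2, a collagen lysyl hydroxylase (1.39, adjusted p = 0.000957), Ddit4 (1.25, adjusted p = 0.000804) and Bnip3 (1.11, adjusted p = 0.00384), and 4 lower, led by Vegfa (-0.86, adjusted p = 0.00552). Only 1 was lower without either PRDM14 array or without PRDM14_DNMT3B replicate 1. In the remaining lists the counts were 1 higher and 1 lower of 12 pyruvate entry genes, 1 higher and none lower of 10 pentose phosphate genes (3 and 1 at an unadjusted p under 0.05), 1 higher and 2 lower of 17 regulators, and 1 higher and 2 lower of 30 oxidative phosphorylation genes. Without any 1 of the 4 arrays, each of these 4 lists had at most 1 gene that passed.

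Against J1, PRDM14_DNMT3B differed in 3 of 10 genes, where 39.1% of all genes passed. Pfkp was higher (1 of 10, against 19.5% of all genes) and Slc2a1 and Ldhb lower (2 of 10, against 19.6%), and the median was 0.05, beside -0.06 over all genes. On slide 1, where the arrays were scanned in the same pass, the differences were 2.08 for Pfkp, -0.42 for Slc2a1 and -0.37 for Ldhb. On slide 2, across scan passes, they were 2.11, -0.47 and -0.40. Ldhb did not pass without J1 replicate 2 (adjusted p = 0.0544) or without either PRDM14_DNMT3B array (0.0568 and 0.0553). Pfkl was higher by 0.29 with an adjusted p of 0.0983, and it passed with a replicate block (adjusted p = 0.047), in which the number stands for the shared slide of these arrays. Among the other glycolysis genes 5 were higher and 5 lower of 22. Of 20 hypoxia-inducible genes 10 were higher and 1 lower (median 0.31), with Fam162a higher by 2.45, and of 8 transport genes 4 were higher and 2 lower, with Slc2a4, the insulin-responsive transporter, higher by 1.26. Ldhc was at least 26.7-fold lower (adjusted p = 0.000317, measured means -5.72 in PRDM14_DNMT3B and -0.06 in J1).

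**Figure D4:**
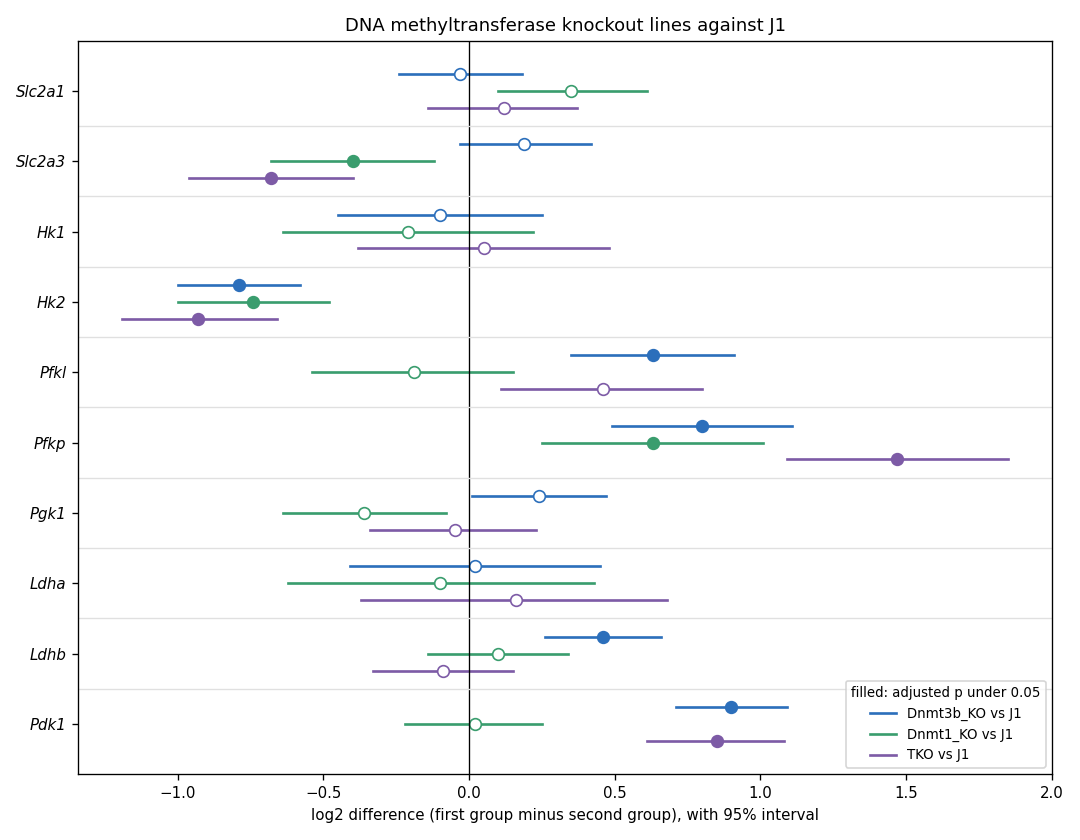
Log2 difference of each gene from J1 with its 95% interval (horizontal axis) in Dnmt3b_KO, Dnmt1_KO and TKO. Filled points passed at an adjusted p under 0.05. Hk2 was lower and Pfkp, by its brighter probe, higher in all 3 knockout lines, and Pdk1 was higher in Dnmt3b_KO and TKO. The dimmer Pfkp probe, not shown, passed in none of these comparisons.

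In Dnmt3b_KO against J1, 5 of 10 genes passed, where 21.0% of all genes did. Pfkl, Pfkp, Ldhb and Pdk1 were higher (4 of 10, against 10.8% of all genes) and Hk2 lower (1 of 10, against 10.2%), with a median of 0.22, beside -0.10 over all genes. Differences on slides 1 (1 scan pass) and 2 (across scan passes) were 0.88 and 0.93 for Pdk1, 0.81 and 0.79 for Pfkp, 0.56 and 0.70 for Pfkl, 0.46 on both slides for Ldhb and -0.79 on both for Hk2. Leaving out 1 array ended calls at adjusted p values between 0.0501 and 0.0805: Ldhb without any of the 4 arrays, Pfkl without J1 replicate 2 or either Dnmt3b_KO array, and Pfkp without Dnmt3b_KO replicate 2. Of the hypoxia list, 9 of 20 were higher, led by Adm (1.77, adjusted p = 0.00202) and Fam162a (1.72, adjusted p = 0.000702), and 2 lower (6 and 1 without Dnmt3b_KO replicate 2). Slc16a3 was higher by 0.63 (adjusted p = 0.0116), 1 of 3 higher and 2 lower among 8 transport genes. These became 1 and 1 without Dnmt3b_KO replicate 1, and 2 and 1 without Dnmt3b_KO replicate 2 or J1 replicate 2. Of 22 other glycolysis genes 4 were higher and 2 lower, and of 17 regulators 1 was higher and 3 lower, led by Txnip, which restrains glucose uptake (-0.95, adjusted p = 0.00266). Of 30 oxidative phosphorylation genes 1 was higher and 1 lower, while 6 were lower with a replicate block and 8 with slide as a random block.

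In Dnmt1_KO, with 1 array, 3 of 10 genes passed against J1, where 28.2% of all genes did. Pfkp was higher (1 of 10, against 13.1% of all genes) and Slc2a3 and Hk2 lower (2 of 10, against 15.0%), and the median was -0.14, the same as over all genes. On slide 1, across scan passes, the differences were 0.73, -0.37 and -0.69. The Slc2a3 call depended on scaling and did not pass with quantile normalization, while the Pfkp and Hk2 calls held there. With quantile normalization Slc2a1 (0.66, adjusted p = 0.00709) and Ldhb (0.38, adjusted p = 0.0276) were also higher. Pfkp did not pass without J1 replicate 1 (0.54, adjusted p = 0.0862) or without either PRDM14 array, which then enter only through the shared spread (adjusted p = 0.0578).

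Oxidative phosphorylation genes were lower in Dnmt1_KO, in a number that depended on scaling. Of 30 genes, 19 were lower and none higher by limma (25 and 1 at an unadjusted p under 0.05), with a median of -0.50 beside -0.14 over all genes, led by Cox6b1 (-0.71, adjusted p = 0.0208) and Cox7b (-0.70, adjusted p = 0.00869). With quantile normalization 3 were lower (median -0.19), and with the values deposited by the authors 1 was lower. It was 6 with no filter on dim probes, 23 with a replicate or slide block and 24 with slide as a random block. Without J1 replicate 1 the count was 8, and without J1 replicate 2 or either PRDM14 array it was 12. Slc16a3 was higher by 1.34 (adjusted p = 0.00174), and Myc was lower (-1.20, adjusted p = 0.000948), 1 of 3 regulators lower and 2 higher of 17. In the hypoxia list 6 of 20 were higher and 5 lower, with Fam162a higher by 2.10 (adjusted p = 0.000296). In the other glycolysis list 4 of 22 were higher and 3 lower, where 13.1% of all genes were higher and 15.0% lower. Hkdc1, a hexokinase domain gene, was at least 1.56-fold higher (measured means -3.57 in Dnmt1_KO and -6.28 in J1). It was not well above background in J1 and may have entered the test through a line in which it was high. Its place among the 4 higher may thus be partly set by the filter. The 3 lower became 1 without J1 replicate 1, without either PRDM14 array or with quantile normalization, and 7 with slide as a block, fixed or random. Of 12 pyruvate entry genes 4 were lower, among them Mpc1 (-0.79, adjusted p = 0.00732), and none higher by limma (1 at an unadjusted p under 0.05), while 7 were lower with slide as a fixed block. The embryonic stem cell markers moved with this array, with 7 of 10 lower than in J1, none higher by limma or at an unadjusted p under 0.05, and a median of -0.68.

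In TKO, also with 1 array, 4 of 10 genes passed against J1, where 28.5% of all genes did. Pfkp and Pdk1 were higher (2 of 10, against 13.9% of all genes) and Slc2a3 and Hk2 lower (2 of 10, against 14.7%), and the median was 0.08, beside -0.07 over all genes. On slide 1, across scan passes, the differences were 1.56 for Pfkp, 0.81 for Pdk1, -0.65 for Slc2a3 and -0.87 for Hk2. These 4 calls held under all alternatives run on the brightest probe or the probe mean. Of the hypoxia list, 10 of 20 were higher and 3 lower (median 0.52), with Fam162a higher by 2.22 (adjusted p = 0.0003) and Ankrd37 by 1.80 (adjusted p = 0.000839). Hkdc1 was at least 13.2-fold higher (measured means -0.48 in TKO and -6.28 in J1) and Pfkfb3 lower (-1.17, adjusted p = 0.00477), among 3 higher and 2 lower of 22 other glycolysis genes. Hkdc1 was not well above background in J1 and may have entered the test through a line in which it was high. Its place in this count may thus be partly set by the filter. Slc16a3 was higher by 1.53 (adjusted p = 0.00111), and Mlxipl, the carbohydrate response factor, by 2.13 (adjusted p = 0.0016). The transport list had 3 higher and 1 lower of 8. Mlxipl was the single regulator that was higher of 17, and 3 were lower, among them Myc (-0.99). With slide as a random block 4 regulators were higher and 3 lower. Of 30 oxidative phosphorylation genes 7 were lower and 1 higher, a count that moved both ways. It was 2 with quantile normalization and no gene was lower with the values deposited by the authors (13 at an unadjusted p under 0.05 in the scaling used here). It was 13 with a replicate block, 11 with slide as a block and 14 with slide as a random block. Without any 1 array of a replicated group it was 1 to 3 (1 without J1 replicate 2).

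PRDM14 and PRDM14_DNMT3B were also set against Dnmt3b_KO, the line that lacks the enzyme whose form was added back. PRDM14 differed from Dnmt3b_KO in 9 of 10 genes, where 37.3% of all genes passed. Hk2 (0.30, adjusted p = 0.0407) and Pfkp (1.04, adjusted p = 0.00184) were higher (2 of 10, against 21.7% of all genes). Lower were 7 of 10, against 15.7%: Pfkl (-1.26, 2.39-fold, adjusted p = 0.000647), Ldha (-0.91, adjusted p = 0.00992), Ldhb (-0.90, adjusted p = 0.000613), Pgk1 (-0.79, adjusted p = 0.00172), Slc2a1 (-0.61, adjusted p = 0.00302), Pdk1 (-0.60, adjusted p = 0.00245) and Slc2a3 (-0.30, adjusted p = 0.0484). The median was -0.60, beside 0.08 over all genes. The Hk2 call did not hold with normexp background correction, quantile normalization, the values deposited by the authors or no filter on dim probes. The Slc2a3 call did not hold with normexp background correction, with no filter on dim probes or with every probe tested. The Hk2 and Slc2a3 calls were lost without any 1 of the 8 arrays of replicated groups (adjusted p of 0.051 to 0.188 for Hk2 and 0.067 to 0.206 for Slc2a3), and Ldha was lost without PRDM14 replicate 1 (0.0599) or Dnmt3b_KO replicate 1 (0.0504). Of the other glycolysis genes 10 of 22 were lower and 1 higher (median -0.42), with Tpi1 at -1.44 (adjusted p = 0.000135). These counts were 6 and 0 without PRDM14 replicate 1 and 5 and 0 without Dnmt3b_KO replicate 1.

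PRDM14_DNMT3B differed from Dnmt3b_KO in 5 of 10 genes, where 30.7% of all genes passed. Hk2 (0.81, 1.75-fold, adjusted p = 0.00137) and Pfkp (1.29, 2.44-fold, adjusted p = 0.000977) were higher (2 of 10, against 16.3% of all genes). Slc2a1 (-0.42, adjusted p = 0.0141), Ldhb (-0.84, adjusted p = 0.000898) and Pdk1 (-0.82, adjusted p = 0.000921) were lower (3 of 10, against 14.5%), and the median was -0.11, beside 0.06 over all genes. These arrays shared slides and scan passes, and the differences on slides 1 and 2 were 0.90 and 0.73 for Hk2, 1.26 and 1.32 for Pfkp, -0.44 and -0.40 for Slc2a1, -0.83 and -0.86 for Ldhb and -0.82 and -0.81 for Pdk1. The Slc2a1 call was lost without any 1 of the 4 arrays (adjusted p of 0.0584 to 0.0811). The groups of a comparison failed to overlap for 59.6% to 82.1% of all genes tested, so a lack of overlap with 2 arrays or 1 is common.

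**Figure D5:**
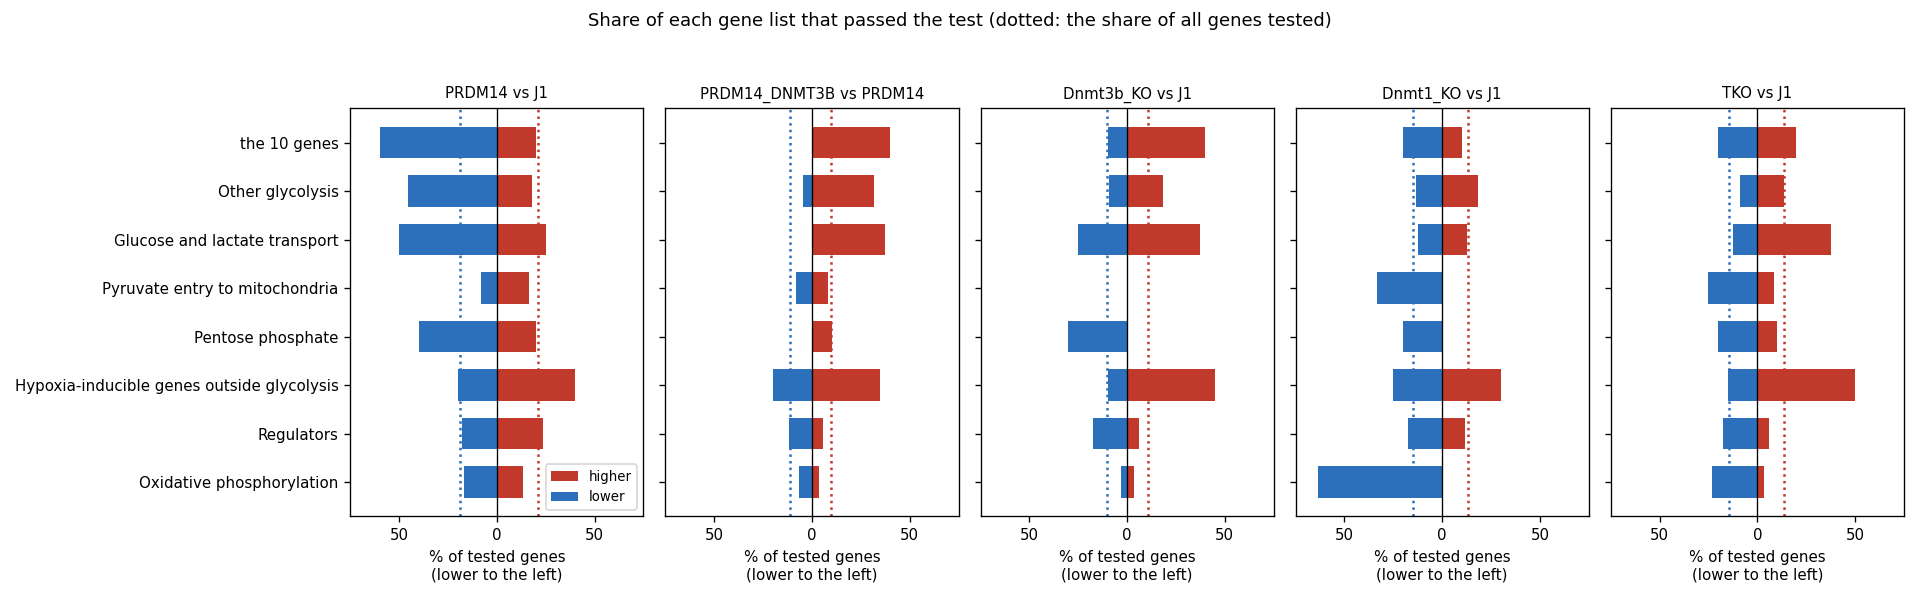
Share of the tested genes of each list that passed, higher to the right and lower to the left (percent, horizontal axis), for 5 comparisons. Dotted lines are the shares among all genes tested. The glycolytic lists lie mainly to the left in PRDM14 against J1 and to the right with added Dnmt3b1, and oxidative phosphorylation lies to the left in Dnmt1_KO.

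Likeness of pattern was described for the 3 genes with the widest range of group means, by Pearson's r over the 10 arrays, which share groups, slides and scaling. The genes most like Pfkp were L3mbtl2 (0.994), Ttpa (0.991) and Vps37a (0.99). Those most like Pfkl were Tpi1 (0.983), Tmem51 (0.976) and Ddah2 (0.966). For Ldha the closest were 2 probes with no gene name (0.982 and 0.97) and a long intergenic transcript probe (0.972).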

How the data were processed

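The authors deposited the unscaled output of Agilent Feature Extraction 10.7.3.1 for each array, in which every spot has an intensity, per the file headers. Spots that were controls or outliers were removed. The log2 intensity of each spot was set relative to its array's 75th percentile, and repeated spots were averaged. A probe entered if all arrays of some group had it well above background (33113 probes), and the brightest probe on average represented a gene. For Dnmt1_KO and TKO that was 1 array, so a gene could enter through a line in which it was high. Symbols were updated through RefSeq accessions (20869 of 22232 matched), and 7 genes with missing values were dropped. One model was fitted to all 10 arrays (limma 3.58.1 in R 4.3.3, with the data.table package, 1.17.8), with no covariates. It left 4 degrees of freedom, moderated by a prior of 1.729, and was tested on simulated data. The log2 values that the authors deposited beside the scanner files followed quantile-normalized log2 intensities (r of at least 0.9993, median 4.243 on every array, quantiles within 0.0049), were not centred by gene, and served as an alternative.

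The genes and all lists were chosen with earlier results of these data known. All 10 genes are named. From each further list at most 3 genes per direction and comparison are named, those with the largest change among those that passed. No mm9 annotation and no protein table were used here, so exons and protein identities are not given. The number of arrays limits precision.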

Additional observations from a re-analysis of the deposited data

How the results depend on the processing

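Each comparison was rerun with normexp background correction (offset 50), quantile normalization, the deposited value table, other filters on dim probes, the mean of a gene's probes, every probe tested, a replicate block, slide as a block and each array left out. Slide as a random block and the other probes of Ldha, Hk1 and Pfkp were added after seeing the data. Of 1410 results for single genes (log2 differences), 1260 kept their direction and side of the threshold, 76 no longer passed, 31 newly passed, 42 that never passed changed sign and 1 reversed. That one was Hk1 in PRDM14_DNMT3B against Dnmt3b_KO, at -0.61 with the mean of its probes; its dimmer probes gave -0.88 and -0.96 there, and 0.58 and 0.59 in Dnmt3b_KO against J1. The dimmer Pfkp probe gave -0.25 in PRDM14, -0.29 in PRDM14_DNMT3B, -0.30 in Dnmt3b_KO and -0.15 in TKO, against the rise of the brighter probe over J1. In Dnmt1_KO its level of -1.52 lay above both J1 arrays (-1.70 and -1.98), the direction of the brighter probe, but did not pass. The cause of the differences between probes was not tested. In Dnmt1_KO against J1 the number of the 10 genes that passed was 5 with probes above background on all arrays, 1 with no filter on dim probes (which tests more genes) and 5 with slide as a random block (estimated correlation 0.456). With 1 array left out it was 1 to 2, in Dnmt3b_KO against J1 it was 2 to 5, and in PRDM14_DNMT3B against PRDM14 it was 2 to 4. In J1, PRDM14_DNMT3B and Dnmt3b_KO the replicate number also marks the slide, and their same-numbered arrays deviated together from the group means (r of 0.208 to 0.231). PRDM14 lay on other slides (0.099 to 0.15). With a replicate block the counts were 8 for PRDM14, 4 for PRDM14_DNMT3B, 5 for Dnmt3b_KO, 4 for Dnmt1_KO and 5 for TKO against J1, 5 for PRDM14_DNMT3B against PRDM14, and 9 and 6 for PRDM14 and PRDM14_DNMT3B against Dnmt3b_KO. Without a filter the calls over all genes were 2995 in place of 4993 for Dnmt3b_KO, 4081 in place of 6706 for Dnmt1_KO (both against J1) and 2993 in place of 4949 for PRDM14_DNMT3B against PRDM14; with the random slide block they were 8455 for Dnmt3b_KO and 10094 for Dnmt1_KO. With 1 array left out they were 2452 to 4132 and 4469 to 5846 for these, 1909 to 4701 for PRDM14_DNMT3B against PRDM14, and 5742 to 8808 in place of 8892 for PRDM14 against Dnmt3b_KO. The scalings moved the median of all genes by at most 0.09. With 1 or 2 arrays a group, small differences could be missed.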
